A study of Mus musculus with 35 samples.

Results

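Toll-like receptors are membrane proteins that bind molecules released by microbes or by injured cells and start an inflammatory response. The 10 receptors described here were picked out by gene symbol: Tlr1, Tlr2, Tlr4, Tlr5 and Tlr6, which act at the cell surface, and Tlr3, Tlr7, Tlr8, Tlr9 and Tlr13, which act inside endosomes. They are 10 of the 21203 genes in the deposited count table, and all 10 are among the 17131 genes that passed the filter on low counts and were tested. The surface receptors recognise lipids, lipoproteins and flagellin, whereas the endosomal receptors recognise nucleic acids and depend on the transport protein Unc93b1 to reach endosomes. All of them except Tlr3 signal through the adaptor Myd88, Tlr3 signals through Ticam1, Tlr4 can use both, and the signal ends on NF-kappaB and on interferon regulatory factors. In the brain, microglia express most of these receptors, and astrocytes and neurons can also express Tlr3.

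The samples are bulk RNA from 34 young adult male mice of the C57BL/6NCrl background, taken from left brain tissue around the injection site and labelled as cortex. Injured mice had a closed head injury, a blow to the intact skull, and later an injection into the left hippocampus of phosphate-buffered saline (PBS), of unmodified mesenchymal stromal cells (MSCs) or of MSCs transfected with synthetic mRNA for interleukin-4 (IL-4 MSCs), which make the cytokine for a short time. The MSCs are primary cells of C57BL/6N mice, bought from a vendor. Tissue was taken 1 or 3 weeks after injury. The authors' methods place the injections 2 or 5 days after injury, so the time since treatment is shorter than the weeks given. At 1 week there were 5 mice with PBS, 5 with MSCs and 5 with IL-4 MSCs, and at 3 weeks there were 4, 5 and 5. The 5 sham mice had neither injury nor injection and form 1 group from both times (mice 0 and 1 from week 1, mice 2, 3 and 4 from week 3), so injury and injection cannot be told apart in a comparison with sham. Mice are named by the number, from 0 to 4, that their labels carry within a group.

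The total count per mouse lay between 29838316 and 41554249. Values per mouse are counts per 1000000 (CPM), the estimated count of a gene as a share of the mouse's total, and the floor of 3 counts corresponds to between 0.0722 and 0.101 CPM, which covers counting error only. CPM follows transcript length, so levels of different receptors are compared only in transcripts per 1000000 (TPM). Fold changes and their standard errors (SE) are log2 values from edgeR, fitted to all groups together, and a receptor is said to have risen or fallen when its p-value, adjusted by the Benjamini-Hochberg method over all 17131 genes, was below 0.05. The 15 comparisons between groups share their sham, PBS or MSC mice and are not independent of one another. In bulk tissue, fewer cells of a type and less RNA per cell cannot be told apart, nor can more cells and more RNA per cell.

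In sham tissue the order of the receptors by TPM was led by Tlr3, the receptor for double-stranded RNA, at 11.2 ± 1.27 TPM (mean ± SD, n = 5). Tlr7 followed at 1.84 ± 0.580 TPM, Tlr4 at 1.36 ± 0.264, Tlr9 at 1.34 ± 0.167 and Tlr13 at 0.955 ± 0.0896 TPM. Below them came Tlr2 at 0.783 ± 0.207 TPM, Tlr6 at 0.713 ± 0.290, Tlr5 at 0.426 ± 0.146, Tlr1 at 0.303 ± 0.112 and Tlr8 at 0.288 ± 0.241 TPM. The steps from Tlr3 to Tlr7 and from Tlr9 to Tlr13 were wider than the SD of either neighbour, and each other step was within the SD of at least 1 of its neighbours. With IL-4 MSCs at 1 week the order was Tlr3 (16.0 ± 2.82 TPM, n = 5), Tlr7 (7.03 ± 0.333), Tlr13 (5.12 ± 0.488), Tlr4 (4.69 ± 0.380), Tlr9 (4.33 ± 0.409), Tlr2 (4.12 ± 1.47), Tlr1 (3.59 ± 0.437), Tlr8 (3.103 ± 0.788), Tlr6 (2.52 ± 0.623) and Tlr5 (0.873 ± 0.218). From Tlr13 to Tlr6 each receptor was within 1 SD of a neighbour in that order, while Tlr3, Tlr7 and Tlr5 stood clear of theirs. Tlr8 was the lowest receptor in sham tissue and the third lowest in that group.

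The first comparisons ask how the receptors stood in injured tissue, with and without injected cells, against sham. At 1 week 8 of the 10 receptors had risen against sham with PBS, beside 8.73% of all genes tested that rose, and 9 of the 10 had an unadjusted p below 0.05 (25.9% of all genes). The median log2 fold change was 1.22 over the 10 receptors, 0.90 over the 5 surface receptors and 1.54 over the 5 endosomal ones, and -0.01 over all genes tested. With MSCs 8 of the 10 had risen (11.0% of all genes), with a median of 1.27, and with IL-4 MSCs all 10 had risen (18.4% of all genes), with a median of 1.94, beside -0.01 and -0.02 over all genes. Tlr3 and Tlr5 were the receptors that did not pass against sham with PBS or with MSCs. Tlr3 did pass with both when counts were scaled by library size alone, with log2 fold changes of 0.20 (adjusted p = 0.0283) and 0.19 (adjusted p = 0.0412), and it passed with PBS without sham mouse 0 (0.22, adjusted p = 0.0332).

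**Figure D1:**
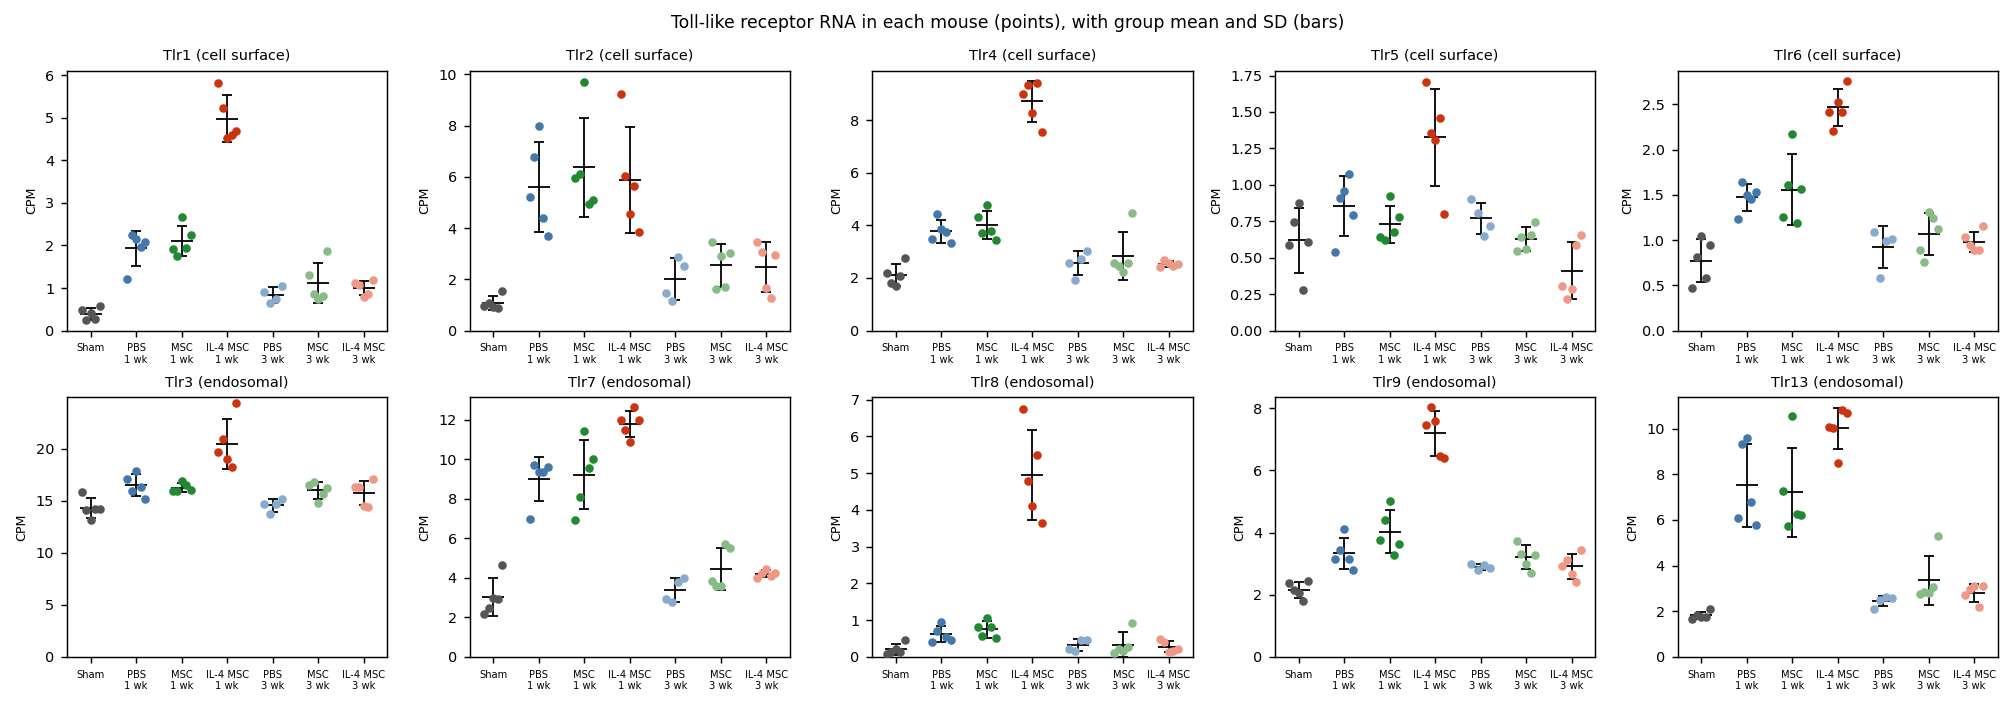
CPM of each receptor (points, 1 per mouse, linear axes) in the 7 groups, with bars at the group mean and SD. The IL-4 MSC mice at 1 week lie above every sham mouse for 9 of the 10 receptors, the exception being Tlr5, and for 20.5% of all genes tested.

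Among the surface receptors, Tlr2 binds lipoproteins as a pair with Tlr1 or Tlr6. Tlr2 was at 0.975, 1.08, 0.910, 0.891 and 1.56 CPM in sham mice 0 to 4 and at 5.19, 6.77, 7.995, 4.39 and 3.68 CPM in the PBS mice at 1 week. The MSC mice at 1 week had 5.97, 6.12, 9.70, 4.93 and 5.10 CPM of Tlr2 and the IL-4 MSC mice 9.25, 6.05, 4.57, 5.65 and 3.86 CPM. Every injured mouse at 1 week was above every sham mouse, and the 3 injured groups overlapped, with the highest values in MSC mouse 2 and IL-4 MSC mouse 0. The log2 fold change against sham was 2.33 (SE 0.31) with PBS, 2.51 (SE 0.31) with MSCs and 2.36 (SE 0.31) with IL-4 MSCs. From PBS to IL-4 MSCs it was 0.03 (SE 0.27, adjusted p = 0.965), and that p does not show that the groups had equal levels.

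Tlr1, the partner of Tlr2 for triacylated lipoproteins, separated IL-4 MSCs from the other treatments at 1 week. Sham mice 0 to 4 had 0.473, 0.241, 0.422, 0.277 and 0.580 CPM of Tlr1, and PBS mice at 1 week had 1.20, 2.26, 2.14, 1.96 and 2.09 CPM. It stood at 1.92, 1.76, 2.66, 1.93 and 2.25 CPM in the MSC mice and at 5.83, 5.23, 4.54, 4.59 and 4.69 CPM in the IL-4 MSC mice of that week. All 5 IL-4 MSC mice were above all PBS and MSC mice, which in turn were above all sham mice, and PBS mouse 0 was the lowest injured mouse of that week. Against sham, Tlr1 rose by a log2 fold change of 2.25 (SE 0.24) with PBS, 2.36 (SE 0.24) with MSCs and 3.57 (SE 0.23) with IL-4 MSCs. IL-4 MSCs exceeded PBS by 1.33 (SE 0.19, 2.51-fold, adjusted p = 4.62e-06).

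Tlr6, the partner of Tlr2 for diacylated lipoproteins, had smaller steps. Its level was between 0.473 and 1.04 CPM in sham, 1.24 and 1.64 CPM with PBS, 1.19 and 2.17 CPM with MSCs and 2.20 and 2.76 CPM with IL-4 MSCs at 1 week. The IL-4 MSC mice were above all others at 1 week, and Tlr6 rose by 0.90, 0.97 and 1.60 against sham with PBS, MSCs and IL-4 MSCs on the log2 scale. IL-4 MSCs exceeded PBS by 0.70 (SE 0.17, adjusted p = 0.00403) and MSCs by 0.63 (SE 0.17, adjusted p = 0.0145). Without MSC mouse 3 at 1 week the second of these was 0.57 with an adjusted p of 0.0508.

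Tlr4, the receptor for bacterial lipopolysaccharide, had 2.20, 1.80, 1.69, 2.06 and 2.78 CPM in the sham mice and 3.48, 4.44, 3.87, 3.76 and 3.33 CPM in the PBS mice at 1 week. MSC mice had 4.33, 3.71, 4.78, 3.77 and 3.44 CPM of Tlr4 at 1 week, and IL-4 MSC mice had 8.98, 9.33, 8.29, 9.40 and 7.56 CPM. The lowest IL-4 MSC mouse, mouse 4, was well above the highest MSC mouse, mouse 2, and the PBS and MSC mice overlapped each other and lay above sham. Tlr4 rose against sham by 0.81 (SE 0.15) with PBS, 0.88 (SE 0.15) with MSCs and 1.98 (SE 0.14) with IL-4 MSCs in log2 fold change. The step from PBS to IL-4 MSCs was 1.17 (SE 0.14, 2.25-fold, adjusted p = 1.22e-07).

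Tlr5, the receptor for flagellin, was the surface receptor with the fewest counts, from 7 to 51 per mouse. It lay between 0.277 and 0.877 CPM in sham, between 0.538 and 1.07 CPM with PBS, between 0.618 and 0.924 CPM with MSCs and between 0.801 and 1.71 CPM with IL-4 MSCs at 1 week. Of the IL-4 MSC mice, 4 of 5 were above every other mouse of those groups and mouse 4 was within their range. Tlr5 rose with IL-4 MSCs against sham (log2 fold change 1.01, SE 0.24, adjusted p = 0.00129) and against MSCs (0.83, SE 0.24, adjusted p = 0.0240), and its difference from PBS was 0.59 (SE 0.24, adjusted p = 0.0851). The call against MSCs was lost when IL-4 MSC mouse 0 or MSC mouse 0, 1 or 3 was left out, with log2 fold changes from 0.74 to 0.82 and an adjusted p from 0.0512 to 0.0777.

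Tlr3 was the most abundant receptor by TPM and had the smallest change against sham in each treatment at 1 week. Its values in the sham mice were 15.8, 14.2, 13.1, 14.2 and 14.2 CPM, in the PBS mice at 1 week 17.1, 15.9, 17.9, 16.3 and 15.1 CPM and in the IL-4 MSC mice 19.7, 20.9, 19.1, 18.2 and 24.4 CPM. The IL-4 MSC mice were above all mice of the other groups, and mouse 4 among them was the highest, while sham mouse 0 overlapped the PBS range. Against sham at 1 week Tlr3 passed with IL-4 MSCs, rising by 0.44 (SE 0.06, 1.36-fold, adjusted p = 1.38e-06). With PBS the log2 difference was 0.17 (SE 0.06, adjusted p = 0.0856) and with MSCs 0.14 (SE 0.06, adjusted p = 0.153). IL-4 MSCs exceeded PBS by 0.28 (SE 0.06, adjusted p = 0.00215) and MSCs by 0.31 (SE 0.06, adjusted p = 0.00104).

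Tlr7 and Tlr8 are related receptors for single-stranded RNA and its breakdown products, and they differed in the size of their response to the treatments. Tlr7 was at 2.17, 2.45, 2.96, 2.92 and 4.64 CPM in the sham mice and at 6.999, 9.69, 9.34, 9.35 and 9.61 CPM in the PBS mice at 1 week. The MSC mice had 6.92, 8.10, 11.4, 9.57 and 10.02 CPM of Tlr7 and the IL-4 MSC mice 11.998, 11.5, 10.9, 12.6 and 12.01 CPM. All injured mice of that week were above all sham mice, among which mouse 4 was the highest, and the IL-4 MSC mice were above all PBS mice and overlapped the MSC mice through MSC mouse 2. Tlr7 rose against sham by 1.54 with PBS, 1.56 with MSCs and 1.90 with IL-4 MSCs (SE 0.16 each) on the log2 scale. The step from PBS to IL-4 MSCs, 0.35 (SE 0.15), had an adjusted p of 0.0967.

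Tlr8 had 0.0836, 0.120, 0.227, 0.123 and 0.458 CPM in the sham mice, which is 3, 5, 7, 4 and 15 counts, and 0.412, 0.712, 0.959, 0.537 and 0.471 CPM in the PBS mice at 1 week. MSC mice of that week had 0.805, 0.556, 1.06, 0.806 and 0.501 CPM of Tlr8. The 5 IL-4 MSC mice had 6.74, 4.78, 4.101, 5.49 and 3.65 CPM, which is 201, 169, 141, 177 and 123 counts. The lowest IL-4 MSC mouse was at 3.65 CPM and no mouse of another group was above 1.06 CPM, while the PBS range reached down into the sham range through sham mouse 4. Tlr8 rose by 4.55 (SE 0.42, 23.4-fold, adjusted p = 1.68e-10) with IL-4 MSCs against sham and by 2.95 (SE 0.36, 7.75-fold, adjusted p = 2.31e-07) against PBS, the greatest changes of the 10 receptors in these comparisons, and sham mouse 0 was at the floor of 3 counts. With PBS against sham the change was 1.59 (SE 0.47, adjusted p = 0.0197), and this call was lost without PBS mouse 1 or 2 or without sham mouse 0, 1 or 3, with log2 fold changes from 1.39 to 1.54 and an adjusted p from 0.0510 to 0.0641. With MSCs against sham it was 1.86 (SE 0.46, adjusted p = 0.00396). The size of these changes against sham depends on which sham mice are used. With the 2 sham mice of week 1 alone they were 5.46 with IL-4 MSCs, 2.49 with PBS and 2.76 with MSCs, and without sham mouse 4 they were 5.09, 2.12 and 2.39, and all of them passed.

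Tlr9, the receptor for unmethylated CpG DNA, had 2.37, 2.14, 2.05, 1.81 and 2.44 CPM in the sham mice and 3.14, 3.44, 4.13, 3.16 and 2.80 CPM in the PBS mice at 1 week. The MSC mice had 3.78, 4.42, 5.03, 3.29 and 3.63 CPM of Tlr9 and the IL-4 MSC mice 7.47, 8.06, 7.59, 6.45 and 6.41 CPM. The groups did not overlap between sham and injured mice, nor between the IL-4 MSC mice and the rest, while PBS and MSC mice overlapped. Its log2 fold change against sham was 0.58 (SE 0.12) with PBS, 0.85 (SE 0.12) with MSCs and 1.66 (SE 0.12) with IL-4 MSCs. The change from PBS to IL-4 MSCs was 1.08 (SE 0.11, 2.11-fold, adjusted p = 1.47e-08).

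Tlr13, the mouse receptor for bacterial ribosomal RNA, was at 1.67, 1.83, 1.75, 1.75 and 2.07 CPM in the sham mice and at 6.08, 9.33, 9.59, 6.79 and 5.78 CPM in the PBS mice at 1 week. It was at 7.28, 5.75, 10.6, 6.25 and 6.20 CPM in the MSC mice and at 10.1, 10.01, 8.49, 10.8 and 10.7 CPM in the IL-4 MSC mice. Every injured mouse had more Tlr13 than every sham mouse, and the injured groups overlapped, with PBS mice 1 and 2 and MSC mouse 2 inside the IL-4 MSC range. Its log2 fold change against sham was 2.01 with PBS, 1.94 with MSCs and 2.39 with IL-4 MSCs (SE 0.18 each). From PBS to IL-4 MSCs the step was 0.38 (SE 0.16, adjusted p = 0.105).

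The treatments at 1 week were also compared with one another. No group here had MSCs transfected without IL-4 mRNA, so IL-4 cannot be told apart from the transfection and the synthetic mRNA. IL-4 MSCs against PBS gave 6 receptors that rose, Tlr1, Tlr4, Tlr6, Tlr3, Tlr8 and Tlr9, beside 11.2% of all genes tested. The median over the 10 receptors was 0.65, over the surface receptors 0.70, over the endosomal receptors 0.38 and over all genes 0.00 on the log2 scale. IL-4 MSCs against MSCs gave the same 6 and Tlr5 (7.66% of all genes), with a median of 0.72 over the 10. Tlr2, Tlr7 and Tlr13, which had risen with PBS against sham by 2.33, 1.54 and 2.01, are the 3 that passed in neither comparison. Tlr2 also passed in neither under each alternative and with any 1 mouse left out. Tlr7 passed against PBS with voom (0.35, adjusted p = 0.0297), with the replicate number as a block (0.36, adjusted p = 0.0311) and with the fit to those 2 groups (0.36, adjusted p = 0.0109). Tlr13 passed with voom against PBS (0.39, adjusted p = 0.0390) and against MSCs (0.46, adjusted p = 0.0246), as it did without PBS mouse 2 (0.51, adjusted p = 0.0373) and without MSC mouse 2 (0.64, adjusted p = 0.00447). Tlr5 passed against PBS without IL-4 MSC mouse 4 (0.74, adjusted p = 0.0293). MSCs against PBS gave 0 receptors by edgeR, beside 0.123% of all genes either way, with 1 receptor, Tlr9, at an unadjusted p below 0.05 (4.52% of all genes) and 0 by DESeq2 and by voom.

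**Figure D2:**
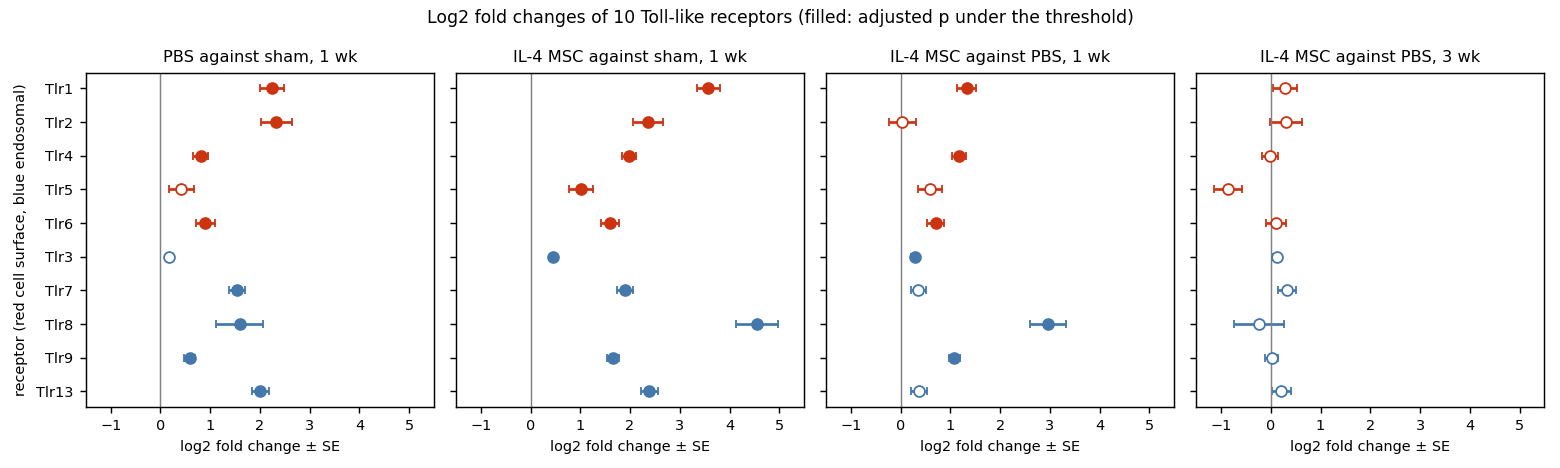
Log2 fold change (horizontal axis) of each receptor in 4 comparisons, PBS and IL-4 MSCs against sham at 1 week and IL-4 MSCs against PBS at 1 and 3 weeks, with bars of 1 SE and filled points for an adjusted p below the threshold. Tlr8 has the greatest value with IL-4 MSCs against sham, 4.55, and no receptor is filled at 3 weeks.

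At 3 weeks the median over the 10 receptors lay nearer to sham than at 1 week in each treatment. With PBS 0 receptors passed against sham by edgeR (0.0292% of all genes either way), 4 had an unadjusted p below 0.05 (5.34% of all genes), and DESeq2 and voom also gave 0. With MSCs Tlr1, Tlr9 and Tlr13 rose against sham (1.11% of all genes rose), by 1.49, 0.55 and 0.87 on the log2 scale, and 8 receptors had an unadjusted p below 0.05 (11.0% of all genes). With IL-4 MSCs Tlr1, Tlr2 and Tlr9 rose (2.76% of all genes rose), by 1.33, 1.18 and 0.42, and 6 had an unadjusted p below 0.05 (19.9% of all genes). The median over the 10 receptors was 0.35, 0.55 and 0.44 with PBS, MSCs and IL-4 MSCs, and 0.00, 0.00 and 0.01 over all genes.

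Tlr1 was the receptor that passed with either cell treatment at 3 weeks under every mouse left out, though with MSCs it lost its call in the fit to those 2 groups (1.48, adjusted p = 0.0934). Its values were 0.902, 0.644, 0.748 and 1.05 CPM in the 4 PBS mice, 1.31, 0.870, 0.749, 0.817 and 1.87 CPM in the MSC mice and 1.12, 1.07, 0.798, 0.858 and 1.18 CPM in the IL-4 MSC mice of week 3. All 14 mice were above the highest sham mouse, at 0.580 CPM, and MSC mouse 4 was the highest of them. Over the same 14 mice Tlr2 lay between 1.16 and 3.45 CPM, Tlr3 between 13.7 and 17.0, Tlr4 between 1.93 and 4.45, Tlr6 between 0.579 and 1.31 and Tlr7 between 2.77 and 5.72 CPM. Tlr8 lay between 0.0958 and 0.919 CPM, Tlr9 between 2.41 and 3.74 and Tlr13 between 2.10 and 5.29 CPM. Of these, Tlr13 alone did not overlap the sham mice, whose highest was at 2.07 CPM.

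The other calls at 3 weeks lay near the threshold, and most were lost with a fold change of similar size. Tlr13 with MSCs had a log2 fold change of 0.64 (adjusted p = 0.0963) without MSC mouse 4, and Tlr9 with MSCs was at 0.49 (adjusted p = 0.0635) without sham mouse 3. With IL-4 MSCs, Tlr2 lost its call without IL-4 MSC mouse 0 or 4 or any 1 of sham mice 0 to 3, at log2 fold changes from 1.03 to 1.18 with an adjusted p from 0.0615 to 0.0992. Tlr9 lost it without IL-4 MSC mouse 0, 1, 2 or 4 or any 1 of sham mice 0 to 3, at 0.35 to 0.45 with an adjusted p from 0.0527 to 0.160. Of the receptors, 1 passed with IL-4 MSCs against sham when IL-4 MSC mouse 0 or 4 or any 1 of sham mice 0 to 3 was left out, and 5 passed when sham mouse 4 was left out. Those that joined were Tlr7 (0.67, adjusted p = 0.00927) and Tlr13 (0.66, adjusted p = 0.0475). Without sham mouse 4, 5 receptors also passed with MSCs against sham, with Tlr2 (1.37, adjusted p = 0.0321) and Tlr7 (0.74, adjusted p = 0.00562) joining. Of all genes, 959 in place of 732 passed without this mouse with IL-4 MSCs, and 310 in place of 197 with MSCs. Where 1 receptor passed with IL-4 MSCs, 233 to 668 of all genes did. Tlr2 with MSCs, at 1.21 (adjusted p = 0.0539) with all mice, also passed without MSC mouse 1 (1.34, adjusted p = 0.0371) or mouse 3 (1.32, adjusted p = 0.0398). Other methods removed calls with all mice as well as adding them. With MSCs, voom removed Tlr13 (0.83, adjusted p = 0.105), and the fit to the 2 groups removed Tlr13 (0.87, adjusted p = 0.0851) and Tlr9 (0.55, adjusted p = 0.0952) besides Tlr1. With IL-4 MSCs, voom removed Tlr2 (1.10, adjusted p = 0.116) and Tlr9 (0.41, adjusted p = 0.0705), the fit to the 2 groups removed the same 2 (1.17, adjusted p = 0.0931, and 0.41, adjusted p = 0.152), and no filter removed Tlr9 (0.41, adjusted p = 0.0514). DESeq2 added Tlr2 (1.22, adjusted p = 0.00642) and Tlr7 (0.55, adjusted p = 0.0433) with MSCs and Tlr13 (0.62, adjusted p = 0.0270) with IL-4 MSCs against sham. The replicate block added Tlr7 with MSCs (0.55, adjusted p = 0.0301) and with IL-4 MSCs (0.49, adjusted p = 0.0279) and Tlr13 with IL-4 MSCs (0.61, adjusted p = 0.0474), and library size without TMM added Tlr13 with IL-4 MSCs (0.63, adjusted p = 0.0488).

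Between treatments at 3 weeks, no receptor passed by edgeR, DESeq2 or voom. IL-4 MSCs against PBS gave 0 receptors (2.94% of all genes either way) with 1 at an unadjusted p below 0.05, IL-4 MSCs against MSCs gave 0 (3.47%) with 1, and MSCs against PBS gave 0 (0.0817%) with 2. Of all genes, 16.9%, 17.9% and 5.73% had an unadjusted p below 0.05 in these 3 comparisons. Tlr5 was the receptor with the unadjusted p below 0.05 in both comparisons of IL-4 MSCs. The 5 IL-4 MSC mice had 0.308, 0.220, 0.287, 0.590 and 0.655 CPM of Tlr5 and the 4 PBS mice 0.902, 0.805, 0.651 and 0.721 CPM at 3 weeks. Mice 0, 1 and 2 of the IL-4 MSC group were the low ones and mouse 4 overlapped the PBS range, and the log2 difference was -0.86 (SE 0.28, adjusted p = 0.0872). Tlr7 and Tlr13 had the unadjusted p below 0.05 between MSCs and PBS, with log2 differences of 0.40 (SE 0.17, adjusted p = 0.805) and 0.46 (SE 0.19, adjusted p = 0.771).

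From 1 to 3 weeks some or all of the receptors fell, depending on the treatment. With IL-4 MSCs all 10 fell (16.6% of all genes fell), with a median log2 fold change of -1.51 over the receptors and 0.03 over all genes, and all 10 lay lower in every mouse of week 3 than in any of week 1, as did 18.0% of all genes. Tlr8 went to 0.476, 0.408, 0.128, 0.161 and 0.210 CPM in the 5 IL-4 MSC mice of week 3, and Tlr4 to 2.41, 2.67, 2.56, 2.47 and 2.54 CPM. These Tlr8 values overlap the sham range, and those of Tlr4 lie within it. The log2 fold change between weeks was -4.09 (SE 0.40) for Tlr8 and -1.72 (SE 0.14) for Tlr4. With PBS 6 receptors fell (4.90% of all genes fell), Tlr1, Tlr2, Tlr4, Tlr6, Tlr7 and Tlr13, and with MSCs 5 fell (4.93%), Tlr1, Tlr2, Tlr4, Tlr7 and Tlr13. Their medians were -0.78 and -0.70 over the 10 receptors and 0.01 over all genes.

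Some of these falls lay near the threshold, and leaving out 1 mouse removed the call with a fold change of similar size in most cases. The fall of Tlr4 with PBS (-0.54, SE 0.15, adjusted p = 0.0296) was lost without PBS mouse 1 or 2 of week 1 or mouse 0 or 1 of week 3, at log2 fold changes from -0.44 to -0.54 with an adjusted p from 0.0592 to 0.171. That of Tlr6 with PBS (-0.66, SE 0.20, adjusted p = 0.0445) was lost without any 1 of PBS mice 1 to 4 of week 1 or mice 0 to 3 of week 3, at -0.50 to -0.75 with an adjusted p from 0.0509 to 0.233. With MSCs, Tlr4 (-0.46, SE 0.14, adjusted p = 0.0498) lost its call without any 1 of MSC mice 0 to 3 of either week, at -0.38 to -0.50 with an adjusted p from 0.0514 to 0.168. The fit to the 2 groups also removed all 3 of these (adjusted p = 0.0530, 0.0861 and 0.233) and the fall of Tlr1 with MSCs (-0.87, adjusted p = 0.0839). No filter removed Tlr6 with PBS (adjusted p = 0.0552) and Tlr4 with MSCs (0.0604), the replicate block removed Tlr4 with PBS (0.0528) and with MSCs (0.0558), and the striatal covariate removed Tlr4 with MSCs (0.0572). Tlr8 with MSCs, at -1.11 (adjusted p = 0.131) with all mice, passed with voom (-1.45, adjusted p = 0.0478) and without MSC mouse 4 of week 3 (-1.97, adjusted p = 0.00226).

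Whether a treatment difference changed between the weeks was tested as an interaction, the difference at 1 week minus that at 3 weeks. For IL-4 MSCs against PBS it was positive and passed for 5 receptors, Tlr1, Tlr4, Tlr5, Tlr8 and Tlr9 (3.93% of all genes passed in that direction), with a median of 0.83 over the 10 receptors and -0.01 over all genes. For IL-4 MSCs against MSCs it passed for 6, the same 5 and Tlr3 (5.96% of all genes), with a median of 0.84. The greatest was that of Tlr8, 3.19 (SE 0.63, adjusted p = 0.00171) against PBS and 2.97 (SE 0.60, adjusted p = 0.00140) against MSCs. Without MSC mouse 4 of week 3 the second was 2.14 (adjusted p = 0.0260). For Tlr4 it was 1.18 (SE 0.21, adjusted p = 0.000473) against PBS and for Tlr9 1.06 (SE 0.17, adjusted p = 0.000136). That of Tlr1 against PBS (1.05, SE 0.31, adjusted p = 0.0425) was lost without IL-4 MSC mouse 0 or 1 or PBS mouse 0 or 3 of week 1, or IL-4 MSC mouse 2 or 3 or PBS mouse 0, 2 or 3 of week 3, at 0.92 to 1.10 with an adjusted p from 0.0583 to 0.121, and with no filter (1.05, adjusted p = 0.0503). Against MSCs, Tlr6 (0.74, adjusted p = 0.0728 with all mice) passed without MSC mouse 2 of week 1 (0.91, adjusted p = 0.0192) or MSC mouse 1 of week 3 (0.87, adjusted p = 0.0324) and with the replicate number as a block (0.74, adjusted p = 0.0498). Tlr13 (0.70, adjusted p = 0.0682 with all mice) passed without the same mouse of week 1 (0.89, adjusted p = 0.00808) or MSC mouse 0 of week 3 (0.79, adjusted p = 0.0435) and with DESeq2 (0.71, adjusted p = 0.0479). For MSCs against PBS 0 receptors passed by edgeR (0% of all genes), 1 had an unadjusted p below 0.05 (3.34% of all genes), and DESeq2 and voom gave 0.

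Surface and endosomal receptors are compared here as 2 groups of 5, with no test. The summed level of the surface receptors was 3.58 ± 0.394 TPM in sham (mean ± SD, n = 5) and 9.69 ± 1.75, 10.5 ± 2.57 and 15.8 ± 2.14 TPM with PBS, MSCs and IL-4 MSCs at 1 week. The endosomal receptors other than Tlr3 summed to 4.42 ± 0.937 TPM in sham and to 11.8 ± 2.03, 12.2 ± 2.32 and 19.6 ± 1.18 TPM. The surface receptors held 18.7% of the TPM of all 10 receptors in sham, 27.4%, 28.8% and 30.7% in the 3 injured groups at 1 week and 21.0%, 21.8% and 22.0% at 3 weeks. Tlr3, which changed least against sham at 1 week, held 58.4% in sham and 31.1% with IL-4 MSCs at 1 week. Taking each receptor with the same weight, as the mean of log2 CPM in each class, the surface receptors changed by 0.16 more than the endosomal ones with PBS against sham, by 0.12 more with MSCs, and with IL-4 MSCs the difference of the changes was -0.08. From PBS to IL-4 MSCs it was -0.24 and from MSCs to IL-4 MSCs -0.20 on the log2 scale. With the log2 of the summed CPM in its place, which Tlr3 leads, all 5 differences were above 0: 0.68, 0.77 and 0.90 against sham with PBS, MSCs and IL-4 MSCs, 0.22 against PBS and 0.13 against MSCs. By the median log2 fold change of each class, the surface and endosomal receptors were at 0.90 and 1.54 with PBS, 0.97 and 1.56 with MSCs and 1.98 and 1.90 with IL-4 MSCs against sham. These medians were at 0.70 and 0.38 from PBS to IL-4 MSCs and at 0.83 and 0.45 from MSCs to IL-4 MSCs, so their order was opposite to that of the mean log2 CPM in all 5 comparisons. The sign of the comparison between the classes rests on how the receptors are summarised.

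Markers of cell types also differed between the groups. All 10 of 10 myeloid markers, of which Csf1r is the most abundant (129 CPM as a mean over all mice) and none is at 3 counts or fewer in every mouse, rose against sham in each injured group at 1 week, and 9 of 10 rose with IL-4 MSCs against PBS. Their summed level was 157, 152, 160, 154 and 245 CPM in the sham mice, 355, 402, 353, 347 and 322 CPM with PBS, 356, 372, 444, 350 and 362 CPM with MSCs and 588, 618, 542, 537 and 488 CPM with IL-4 MSCs at 1 week. At 3 weeks it was 181, 182, 218 and 225 CPM with PBS, 242, 209, 205, 230 and 324 CPM with MSCs and 250, 246, 212, 197 and 237 CPM with IL-4 MSCs, with sham mouse 4 and MSC mouse 4 of week 3 high in their groups. Of the microglial markers, 9 of the 10 listed are given here, a choice made after the data were seen. They are led by Cx3cr1 with none at the floor, and 7 of 9 rose with PBS against sham, while with IL-4 MSCs against PBS 1 rose and 1 fell, with a median log2 fold change of -0.10. Their sum was 186, 174, 177, 168 and 199 CPM in the sham mice, 302, 340, 269, 271 and 255 CPM with PBS and 266, 320, 277, 250 and 256 CPM with IL-4 MSCs at 1 week. Over all 10 microglial markers listed, 8 rose with PBS against sham. With IL-4 MSCs against PBS 1 of the 10 rose and 1 fell, with a median log2 fold change of -0.06. The 10 summed to a mean of 269 CPM in sham, 448 with PBS and 451 with IL-4 MSCs at 1 week. Of 10 markers of monocytes and infiltrating macrophages, led by Itga4 with none at the floor, 3 rose with PBS against sham and 8 rose with IL-4 MSCs against PBS. The summed level of these was 90.6, 131, 112, 89.6 and 88.8 CPM in the PBS mice and 381, 316, 278, 341 and 262 CPM in the IL-4 MSC mice at 1 week, against a mean of 62.5 CPM in sham. This list includes Mrc1 and Cd163, which the authors count as M2-like genes. Its rise therefore does not separate more such cells from a changed state of the cells. Of 5 endothelial markers, led by Flt1, 5 rose with IL-4 MSCs against PBS. In that comparison 3 of 5 neutrophil markers tested of 8 rose (Ly6g and Elane were at 3 counts or fewer in every mouse), as did 4 of 7 mesenchymal, 1 of 6 dendritic cell, 1 of 6 T cell and 0 of 3 B cell markers tested of 5, 0 of 6 astrocyte and 0 of 5 oligodendrocyte markers passed, and 1 of 6 neuronal markers fell. Against sham at 1 week, 5 of 6 astrocyte markers, led by Gfap, rose in each injured group, and of 6 neuronal markers, led by Snap25, 3 fell with PBS, 2 with MSCs and 5 with IL-4 MSCs. Of 6 T cell markers, led by Cd4, 0 rose with PBS, 4 with MSCs and 5 with IL-4 MSCs against sham at 3 weeks, and 4 rose with IL-4 MSCs against PBS. Their sum was 4.26, 3.54, 8.12, 8.64 and 8.51 CPM in the sham mice, 4.89, 5.12, 5.26 and 7.96 CPM with PBS, 7.50, 10.3, 9.74, 10.6 and 10.7 CPM with MSCs and 17.3, 9.01, 18.8, 24.2 and 21.5 CPM with IL-4 MSCs at 3 weeks. Sham mice 0 and 1 and IL-4 MSC mouse 1 of week 3 had the lowest T cell sums of their groups. The same mice had the lowest striatal sums, which are given below. MSC mouse 4 of week 3 went the other way, with the highest T cell sum of its group and the lowest striatal sum. Whether the T cell difference goes with the region sampled was not tested. The part of any of these cell types in the receptors' changes was not tested either.

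Set against the myeloid markers, the receptors fell into different patterns, described here after the values were seen and without a test. Per 1000 CPM of summed myeloid markers, Tlr8 was at a mean of 1.08 CPM in sham, 1.73 with PBS, 1.97 with MSCs and 8.89 with IL-4 MSCs at 1 week, where the lowest IL-4 MSC mouse (7.47) was above the highest PBS mouse (2.72). Tlr1 was at 2.28, 5.44, 5.58 and 8.98 CPM in the same order on this scale. Tlr4 was at 12.2, 10.6, 10.6 and 15.7, and Tlr9 at 12.7, 9.37, 10.7 and 12.98. Tlr2 went from 6.23 in sham to 15.6 and 16.7 with PBS and MSCs and to 10.5 with IL-4 MSCs. Tlr7, at 17.3, 25.4, 24.4 and 21.4, and Tlr13, at 10.7, 21.0, 18.9 and 18.2, had their highest means with PBS, but the injured groups overlapped. Tlr7 lay between 19.7 and 29.9 with PBS, 19.4 and 27.7 with MSCs and 18.6 and 24.6 with IL-4 MSCs. Tlr13 lay between 17.1 and 27.2, 15.5 and 23.8, and 15.7 and 21.9 in the same order. Tlr6 stayed between 4.09 and 4.51 in sham and the injured groups of week 1, and Tlr3 went from 85.1 in sham to 37.3 with IL-4 MSCs. Tlr5 was at 3.68 in sham and between 1.93 and 2.41 in the injured groups of week 1. No receptor had a log2 fold change below 0 against sham at 1 week. Values on this scale that are lower than in sham therefore come from the summed markers. These markers went from a mean of 174 CPM in sham to 356, 377 and 555 CPM with PBS, MSCs and IL-4 MSCs. Tlr3 itself was at a mean of 14.3 CPM in sham and 20.5 CPM with IL-4 MSCs.

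**Figure D3:**
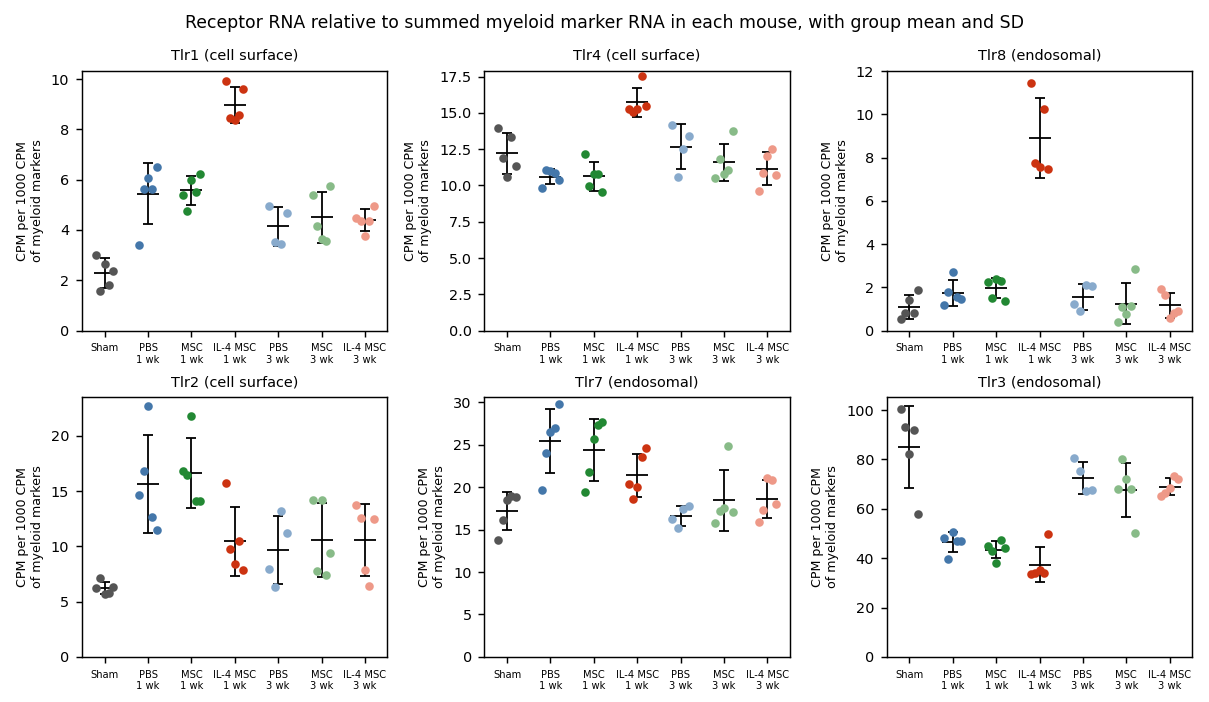
CPM of 6 receptors per 1000 CPM of summed myeloid markers (points, 1 per mouse) in the 7 groups, with bars at the group mean and SD. Tlr8 in the IL-4 MSC mice at 1 week lies above all other mice, and Tlr3 in the injured mice of week 1 lies below all sham mice. The lower Tlr3 on this scale comes from the higher myeloid markers, as its own mean CPM was not below sham.

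The labelled tissue was checked against markers of cortex, hippocampus and striatum. All 6 of 6 cortical markers and all 6 of 6 hippocampal markers were tested, and their summed level was 439 and 485 CPM on average in sham. Against sham at 1 week, 2 of the 6 cortical markers fell with PBS, 0 with MSCs and 3 with IL-4 MSCs, and 0 changed at 3 weeks. Of the hippocampal markers 1 fell with IL-4 MSCs against sham at 3 weeks, with a median log2 fold change of -0.52 over the 6, and 0 changed in the other comparisons with sham. The 8 striatal markers, led by Ppp1r1b with none at the floor, summed to 135, 131, 496, 546 and 614 CPM in sham mice 0 to 4 and to 1096, 258, 1075, 1840 and 1328 CPM in the IL-4 MSC mice at 3 weeks. They were low in sham mice 0 and 1, which are those of week 1, and high in 4 of the 5 IL-4 MSC mice, and at 3 weeks 6 of 8 rose with IL-4 MSCs against sham, 8 of 8 against PBS and 7 of 8 against MSCs. With the striatal score as a covariate, 1 receptor in place of 3 passed with IL-4 MSCs against sham, while Tlr2 and Tlr9, which lost their calls, were at log2 fold changes of 1.17 and 0.44, beside 1.18 and 0.42 without it. Of all genes 112 in place of 732 passed in that fit, and at 3 weeks 6 in place of 504 passed between IL-4 MSCs and PBS and 1 in place of 594 between IL-4 MSCs and MSCs, with 0 receptors either way. With the 3 sham mice of week 3 alone, 1 receptor passed with IL-4 MSCs and 1 with MSCs at 3 weeks. The calls lost had log2 fold changes of 1.13 for Tlr2 and 0.46 for Tlr9 with IL-4 MSCs, and of 0.83 for Tlr13 and 0.60 for Tlr9 with MSCs, and of all genes 147 in place of 732 and 59 in place of 197 passed. At 1 week the striatal markers summed to between 195 and 294 CPM with PBS and between 302 and 638 CPM with IL-4 MSCs. Of the 8, 0 passed between these groups, with a median log2 fold change of 0.92. There 6 receptors passed with the striatal score as a covariate and 6 without it.

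The receptors were also related among themselves across the 34 mice, which share the 7 groups, so these correlations of log2 CPM are a description. The highest Pearson r between members was that of Tlr4 with Tlr8, 0.958 (n = 34), followed by Tlr7 with Tlr13, 0.957, and the lowest was that of Tlr3 with Tlr5, 0.418. Over all genes tested, Tlr4 and Tlr8 were both most like Ctsc, a lysosomal protease, with r = 0.986 and 0.962. Tlr1 was most like Gpr65, a proton-sensing receptor (0.971), Tlr7 most like Ncf1, a subunit of the phagocyte oxidase (0.972), and Tlr13 most like Msr1, a scavenger receptor (0.974). Tlr2 was most like Ctsd (0.948), Tlr6 most like Cmklr1 (0.936), Tlr9 most like Cd84 (0.956) and Tlr3 most like Gbp2, an interferon-induced GTPase (0.909). Tlr5 had the lowest such value, 0.775 with Tfpi.

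Reads that fit more than 1 transcript are divided in estimated counts. The estimated counts were whole numbers, within 0.01, in all 34 mice for Tlr2, Tlr3, Tlr5, Tlr7, Tlr8, Tlr9 and Tlr13, and were not whole in 31 mice for Tlr1, 33 for Tlr6 and 34 for Tlr4. How much of Tlr1 and Tlr6, which are neighbours in sequence and position, was assigned to the other was not tested. Of the mouse receptors outside the 10, Tlr11 had 0 to 11 counts and was not tested, and Tlr12 had 13 to 53 counts and rose with IL-4 MSCs against sham at 1 week (log2 fold change 0.86, adjusted p = 0.00280).

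The genes around the receptors give the rest of the pathway at 1 week, beside 8.73% of all genes that rose with PBS against sham and 11.2% that rose with IL-4 MSCs against PBS. Of 16 co-receptors and trafficking genes, 10 rose with PBS against sham and 7 with IL-4 MSCs against PBS, where the protease Ctss rose by 1.47, the endosomal transporter Slc15a3 by 1.45 and Unc93b1 by 0.79 on the log2 scale, and the median was 0.43. Of 23 adaptors and kinases, 8 rose with PBS against sham, and with IL-4 MSCs against PBS 9 rose and 1 fell, among them the adaptor Ticam2 (1.00) and the kinases Btk (0.98) and Irak4 (0.73), with a median of 0.06. Of 11 transcription factors, 5 rose and 1 fell with PBS against sham and 7 rose with IL-4 MSCs against PBS, with a median of 0.45. The interferon regulatory factor Irf7 rose by 2.78 (SE 0.21) in that comparison and stood at 1.32 CPM in sham, 6.20 with PBS and 43.4 with IL-4 MSCs on average. Of 17 inhibitors tested of 18, 5 rose with PBS against sham, and with IL-4 MSCs against PBS 8 rose and 1 fell, with a median of 0.37. They were led by the cytokine signalling inhibitor Socs1 (1.61) and the receptor gene Il1rl1 (1.38), whose transcript forms are not separated here. Of 16 induced genes tested of 20, 11 rose with PBS against sham and 4 with IL-4 MSCs against PBS, the chemokines Ccl5 (2.91), Ccl2 (2.32) and Cxcl10 (1.40) and the nitric oxide synthase Nos2 (1.95), with a median of 0.35, and Tnf, Il6, Il12b and Ifnb1 had too few counts to test. Of 11 endogenous ligands, 2 rose with PBS against sham and 3 with IL-4 MSCs against PBS, led by fibronectin, Fn1 (1.42), with a median of 0.03. The median over all genes in the comparison of IL-4 MSCs with PBS was 0.00.

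Promoters are shown for 4 receptors of different patterns, chosen after the values were seen: Tlr8 and Tlr1, which rose most from PBS to IL-4 MSCs at 1 week, Tlr9, which rose both with PBS against sham and from PBS to IL-4 MSCs, and Tlr2, which rose with PBS against sham and did not pass from PBS to IL-4 MSCs. RefSeq promoter entries of build GRCm38.p6 matched 8 of the 10 receptors, in 10 windows of the 250 bases before a transcript start; Tlr4 and Tlr7 had no entry. The motifs, also chosen after the values were seen and searched on both strands, were TTCNNNNGAA for STAT factors, present in 5.85% of all 32851 promoter windows of this length and in 1 of the 10 receptor windows, GAGGAAGT for PU.1 (2.44% and 1), GAAANNGAAA for interferon regulatory factors (2.98% and 1) and GGGNNNNTCC for NF-kappaB (16.5% and 3). The NF-kappaB letters lie in windows of Tlr2, Tlr3 and Tlr6, and the interferon letters in the other window of Tlr6. Of these, Tlr3 did not pass with PBS against sham at 1 week. Tlr6 rose both with PBS against sham and from PBS to IL-4 MSCs at 1 week. Capitals mark a match, which is a description and not a site. Tlr8 (chrX:167264330-167264579, minus strand) holds the STAT letters, Tlr1 (chr5:64933559-64933808, minus strand) the PU.1 letters, which its other window (chr5:64932700-64932949) does not hold, nor any of the other 3, Tlr2 (chr3:83841609-83841858, minus strand) the NF-kappaB letters, and Tlr9 (chr9:106222348-106222597, plus strand) none of the 4.
Tlr8: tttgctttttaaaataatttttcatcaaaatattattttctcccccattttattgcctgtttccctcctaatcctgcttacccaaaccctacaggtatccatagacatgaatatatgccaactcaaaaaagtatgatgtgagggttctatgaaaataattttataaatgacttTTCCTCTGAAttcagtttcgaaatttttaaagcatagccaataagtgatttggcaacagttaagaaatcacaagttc
Tlr1: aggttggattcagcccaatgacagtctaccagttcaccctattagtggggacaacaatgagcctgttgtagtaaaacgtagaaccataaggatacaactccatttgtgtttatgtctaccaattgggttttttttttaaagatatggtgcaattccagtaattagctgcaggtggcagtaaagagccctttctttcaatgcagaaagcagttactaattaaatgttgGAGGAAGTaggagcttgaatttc
Tlr2: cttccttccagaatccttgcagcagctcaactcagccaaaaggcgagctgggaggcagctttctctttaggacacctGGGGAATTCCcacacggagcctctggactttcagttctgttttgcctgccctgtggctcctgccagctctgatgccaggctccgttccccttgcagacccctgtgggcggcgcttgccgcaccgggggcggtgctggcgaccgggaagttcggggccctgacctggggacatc
Tlr9: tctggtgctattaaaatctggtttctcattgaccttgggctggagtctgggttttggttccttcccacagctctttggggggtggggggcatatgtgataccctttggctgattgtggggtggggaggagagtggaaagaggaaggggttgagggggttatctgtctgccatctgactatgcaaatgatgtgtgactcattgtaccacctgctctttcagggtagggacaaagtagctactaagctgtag

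By position on GRCm38, Tlr1 (ENSMUSG00000044827, chr5:64924679-64933563) and Tlr6 (ENSMUSG00000051498, chr5:64952031-64960097) are neighbours on the minus strand of chromosome 5 with 18467 bases between them. Tlr8 (ENSMUSG00000040522, chrX:167242696-167264329) and Tlr7 (ENSMUSG00000044583, chrX:167304929-167330558) are neighbours on the minus strand of chromosome X with 40599 bases between them. Of the first pair both rose with IL-4 MSCs against PBS at 1 week, and of the second Tlr8 rose and Tlr7 did not pass. The other receptors are Tlr2 (ENSMUSG00000027995, chr3:83836272-83841767, minus), Tlr3 (ENSMUSG00000031639, chr8:45395665-45411080, minus), Tlr4 (ENSMUSG00000039005, chr4:66827584-66930284, plus), Tlr5 (ENSMUSG00000079164, chr1:182954788-182976044, plus), Tlr9 (ENSMUSG00000045322, chr9:106222598-106226883, plus) and Tlr13 (ENSMUSG00000033777, chrX:106143204-106160493, plus).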

How the data were processed

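The authors trimmed reads with cutadapt 2.4, checked them with FastQC 0.11.8 and quantified them with kallisto 0.46 against GENCODE protein-coding transcripts of mouse build GRCm38. The deposited table holds, per gene and mouse, an estimated count, not normalized, and TPM values, which the authors' pipeline scaled by transcript length and to a fixed total. The table also holds fold changes and p-values of the authors' own comparisons (sleuth 0.30 in R 3.6.1), which were not used. One more PBS mouse of week 3 is labelled but has no column in the table. The authors report leaving out a PBS mouse of that week because its transcript counts were anomalous.

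Estimated counts were rounded (38.3% were not whole within 0.01) and tested with edgeR 4.0.16 (quasi-likelihood, TMM normalization, all 7 groups in 1 fit, two-sided) in R 4.3.3, after filterByExpr with a minimum count of 10 and a minimum total of 15 left 17131 of 21203 genes. P-values were adjusted by the Benjamini-Hochberg method over all genes tested. CPM were scaled by library size alone, and log2 CPM had a prior count of 2. The alternatives were DESeq2 1.42.0, voom in limma 3.58.1, library size without TMM, no filter, only the groups compared, the replicate number as a block, same-week sham mice, the striatal score as a covariate and leaving out each mouse. Tests were checked on simulated data.

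The receptors, picked out by gene symbol, and the gene lists were chosen with earlier results of these data known. All receptors are named; of each pathway list, up to 4 genes past the threshold with the largest change and the most abundant gene could be named, and the genes most like a receptor are those of highest Pearson r of log2 CPM. Figures were drawn with Python 3.11.15 and matplotlib 3.10.9.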

Additional observations from a re-analysis of the deposited data

Results flagged for a closer look

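In each group of mice, the highest and the lowest CPM of each receptor were compared with the rest of the group by Dixon's criterion, a gap to the nearest mouse that is large for the group's range. This picked out 7 of the 70 sets of values, and chance alone picks out about 1 in 20. Tlr1 was at 1.20 CPM in PBS mouse 0 at 1 week, the others lying between 1.96 and 2.26, and Tlr7 was at 6.999 CPM in the same mouse, the others lying between 9.34 and 9.69. Tlr2 was at 1.56 CPM in sham mouse 4 (the others between 0.891 and 1.08) and at 9.70 CPM in MSC mouse 2 at 1 week (4.93 to 6.12). MSC mouse 4 at 3 weeks was high in 3 receptors, with Tlr4 at 4.45 CPM (the others between 2.22 and 2.55), Tlr8 at 0.919 CPM (0.0958 to 0.262) and Tlr13 at 5.29 CPM (2.75 to 3.07). No explanation was tested.

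For 6 receptors the difference between IL-4 MSCs and another treatment differed between the weeks by the test of the interaction, given here as the log2 difference at 1 week minus that at 3 weeks. Against PBS it was 1.05 for Tlr1, 1.18 for Tlr4, 1.46 for Tlr5, 3.19 for Tlr8 and 1.06 for Tlr9. Against MSCs it was 1.37 for Tlr1, 0.33 for Tlr3, 1.26 for Tlr4, 1.42 for Tlr5, 2.97 for Tlr8 and 0.95 for Tlr9.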

How the results depend on the processing

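No called receptor changed direction under any alternative. The fold change of a called receptor moved by more than 1.5 times for Tlr8 alone: against sham at 1 week with same-week sham, from 4.55 to 5.46 with IL-4 MSCs, 1.59 to 2.49 with PBS and 1.86 to 2.76 with MSCs (fewer mice), and in the interaction of IL-4 MSCs with MSCs, from 2.97 to 2.14 without MSC mouse 4 of week 3 (all on the log2 scale). Of 77 calls, DESeq2 and library size without TMM kept 77, voom 74, no filter 73 and the replicate block 75; the groups alone kept 57 of 66, same-week sham 28 of 32, the striatal covariate 63 of 66, and leaving out 1 mouse 814 of 869. The number of receptors called moved by more than 1.5 times in 3 comparisons. With IL-4 MSCs against sham at 3 weeks it was 3, and 1 with voom, with the groups alone (fewer mice), with same-week sham (fewer mice) and with the striatal covariate, and 5 with the replicate block. With MSCs against sham at 3 weeks it was 3, and 5 with DESeq2, 0 with the groups alone and 1 with same-week sham. With MSCs at 3 against 1 week it was 5, and 3 with the groups alone. Other causes were not tested.

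The surface-minus-endosomal difference, on the log2 of the summed CPM in place of the mean log2 CPM, went from 0.16 to 0.68 with PBS against sham, from 0.12 to 0.77 with MSCs, from -0.08 to 0.90 with IL-4 MSCs, from -0.24 to 0.22 for the step from PBS to IL-4 MSCs and from -0.20 to 0.13 for that from MSCs. The sum is led by Tlr3 by construction.

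Leaving out 1 mouse at a time gave 7 to 8 receptors with PBS, 8 to 8 with MSCs and 10 to 10 with IL-4 MSCs against sham at 1 week, and 0 to 0, 2 to 5 and 1 to 5 at 3 weeks. Between treatments at 1 week it gave 6 to 7 for IL-4 MSCs against PBS, 5 to 8 against MSCs and 0 to 0 for MSCs against PBS, and 0 to 0 for all of them at 3 weeks. From 1 to 3 weeks 4 to 6, 4 to 6 and 10 to 10 fell with PBS, MSCs and IL-4 MSCs. The interactions gave 4 to 5 for IL-4 MSCs with PBS, 6 to 8 with MSCs and 0 to 0 for MSCs with PBS. The surface-minus-endosomal difference ranged from 0.10 to 0.19 with PBS, 0.06 to 0.16 with MSCs and -0.14 to -0.03 with IL-4 MSCs against sham, -0.29 to -0.19 against PBS and -0.25 to -0.15 against MSCs.

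Replicate numbers do not pair the mice: of 99 pairs with the same number, 30 had a residual correlation above 0.1 (range -0.299 to 0.411, median 0.0216, beside -0.00169 for different numbers), and 7 of 34 mice were most like a mouse of their own number. With the number as a block the 1-week count was 7 for IL-4 MSCs against PBS. Groups of 4 or 5 mice, receptors near the floor of 3 counts (Tlr8 in sham), estimated counts of Tlr1, Tlr4 and Tlr6 that are not whole, IL-4 not separable from transfection, and sham mice from both weeks limit these results, as does tissue that differed in striatal markers.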
